A study of Mus musculus with 10 samples.

Results

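The phagocyte NADPH oxidase is represented here by 5 of the 18453 genes in the count tables: Cybb, Cyba, Ncf1, Ncf4 and Rac2. They were chosen by symbol, as subunits of this enzyme, with their CPM (read counts scaled to library size) in the Mef2c shRNA and scramble libraries already known. Each comparison between those groups is therefore a description of the 5 genes, and any count of members past a threshold is part of that description, not support for it. The study measured RNA by sequencing in hippocampal CA3 of C57BL/6J mice, in 5 scramble and 5 knockdown libraries. Mice of both groups received adeno-associated virus (AAV) by stereotaxic injection into CA3 on both sides. The scramble group got AAV-shRNA(scramble), a virus with a control hairpin, and the knockdown group got AAV-shRNA(mef2c), a virus with a hairpin against the transcription factor Mef2c. All libraries carry a male tag, while the injection protocol mentions both sexes. No age, time after injection or viral promoter is given in the sources used here. Whole CA3 tissue was used, so the libraries hold RNA of neurons, glia, vessels and any blood cells together, and fewer cells of a type and less RNA per cell cannot be told apart.

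The enzyme, often named NOX2, passes electrons from NADPH across a membrane to oxygen and so makes superoxide, which is converted to hydrogen peroxide. Its membrane core is a pair of proteins, the catalytic gp91phox (Cybb) and its stabilizing partner p22phox (Cyba). At rest the cytosolic subunits, p47phox (Ncf1) and p40phox (Ncf4) among them, stay apart from the core, and on stimulation they move to the membrane together with a Rac GTPase, in blood cells largely Rac2. Neutrophils and macrophages use the burst to kill microbes, and loss of a core or cytosolic subunit causes chronic granulomatous disease. In the brain, microglia are the best known source of this oxidase.

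Upstream sequences from RefSeq (GRCm38.p6) were matched for 3 of the 5 members and are shown for those 3, with no sequence at hand for Ncf4 and Rac2. Each sequence covers the 250 bases before the RefSeq transcription start, written 5′ to 3′ on the strand of the gene, which is the minus strand for all 3. They lie at chrX:9469325-9469574 for Cybb, chr8:122432941-122433190 for Cyba and chr5:134229626-134229875 for Ncf1. The Cybb window lies inside the GENCODE span of that gene, 9435252 to 9487771. The bases just after the RefSeq start lay at or near the beginning of a GENCODE transcript for Cybb and Ncf1, but not for Cyba. Capitals mark matches to GAAANNGAAA, the letters of an interferon response element, on either strand.
Cybb: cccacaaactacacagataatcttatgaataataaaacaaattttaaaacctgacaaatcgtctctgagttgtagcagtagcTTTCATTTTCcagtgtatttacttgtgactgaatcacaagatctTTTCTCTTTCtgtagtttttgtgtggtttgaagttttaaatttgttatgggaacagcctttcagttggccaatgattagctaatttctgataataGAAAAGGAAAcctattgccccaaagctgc
Cyba: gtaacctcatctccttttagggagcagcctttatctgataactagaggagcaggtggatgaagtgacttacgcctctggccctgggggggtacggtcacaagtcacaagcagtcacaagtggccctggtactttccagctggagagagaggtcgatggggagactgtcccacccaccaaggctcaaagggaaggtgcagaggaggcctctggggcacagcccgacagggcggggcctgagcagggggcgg
Ncf1: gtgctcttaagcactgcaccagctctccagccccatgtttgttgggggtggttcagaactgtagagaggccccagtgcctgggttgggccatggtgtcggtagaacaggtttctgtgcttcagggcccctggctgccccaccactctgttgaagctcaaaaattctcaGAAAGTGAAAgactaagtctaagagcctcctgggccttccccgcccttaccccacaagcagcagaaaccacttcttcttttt
The Cybb window held 3 matches, at bases -168 to -159, -124 to -115 and -29 to -20 from the start. Ncf1 held 1 match, at -82 to -73, and Cyba held 0. Of all 32851 promoter windows of this length, 3.0% held at least 1 such match. Searches on both strands for GGAANNGAAA, a joint site of ETS and IRF factors, and for GAGGAA, the core of the site of the myeloid factor PU.1, found 0 matches in the 3 windows. Those letters occurred in 2.3% and 23.3% of all windows. The searched patterns can share bases, and a match is a description of letters only.

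Scramble libraries held 14701928 to 15637076 counts and knockdown libraries 15669620 to 17798090 counts. The labels do not say whether each library is a different mouse, and the spread behind the p-values may be technical. The hairpin's target Mef2c stood at 166, 198, 176, 312 and 175 CPM in scramble libraries 1 to 5. In the knockdown group it stood at 111, 131, 121 and 163 CPM in libraries 1 to 4 and at 286 CPM in the library labelled knockdown 5. That last value lay above 4 of the 5 scramble libraries, against its label, and the Mef2c difference did not pass the test (log2 fold change -0.34, SE 0.30, edgeR adjusted p = 0.489). The CA3 markers Grik4 and Bok were present in all libraries, from 54.3 to 89.5 and from 54.9 to 106 CPM, and so was Prox1 of the neighbouring dentate gyrus, from 82.2 to 157 CPM. Summed markers of cortical neurons were highest in scramble library 4 (315 CPM) and in the library labelled knockdown 5 (383 CPM).

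Cybb encodes gp91phox, the subunit that carries the electrons, and lies on chromosome X from 9435252 to 9487771 (minus strand, GRCm38, ENSMUSG00000015340). It stood at 0.538, 1.85, 4.04, 1.27 and 0.894 CPM in scramble libraries 1 to 5, and at 4.05, 9.66, 15.3, 5.01 and 1.57 CPM in knockdown libraries 1 to 5. Knockdown libraries 2 and 3 were the highest, and the library labelled knockdown 5 lay below scramble libraries 2 and 3. The means were 1.72 ± 1.39 and 7.12 ± 5.44 CPM (SD, n = 5 each), a log2 fold change of 2.04 (SE 0.68), and the groups overlapped. The lowest value rests on 8 counts, with an exact Poisson 95% interval of 3.45 to 15.8 counts, which covers counting error only.

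Cyba encodes p22phox, which stabilizes gp91phox and also pairs with other NOX enzymes, and lies on chromosome 8 from 122424776 to 122432930 (minus strand, ENSMUSG00000006519). Its level was 5.38, 4.92, 5.37, 3.82 and 5.16 CPM in scramble libraries 1 to 5, and 7.13, 15.4, 16.7, 11.1 and 8.39 CPM in knockdown libraries 1 to 5. Every knockdown library, including the library labelled knockdown 5, lay above every scramble library. With means of 4.93 ± 0.649 and 11.7 ± 4.22 CPM (SD, n = 5 each) the log2 fold change was 1.25 (SE 0.22). Cyba had the smallest spread of the 5 genes among scramble libraries relative to its mean.

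Ncf1 encodes p47phox, the organizer that is phosphorylated on stimulation, and lies on chromosome 5 from 134220053 to 134229625 (minus strand, ENSMUSG00000015950). Scramble libraries 1 to 5 had 5.45, 5.12, 8.42, 5.36 and 5.57 CPM, and knockdown libraries 1 to 5 had 5.72, 14.3, 20.9, 9.85 and 7.43 CPM. Scramble library 3 stood above knockdown library 1 and the library labelled knockdown 5, and the other scramble libraries lay below all 5 knockdown libraries. The group means were 5.98 ± 1.37 and 11.6 ± 6.10 CPM (SD, n = 5 each), with a log2 fold change of 0.96 (SE 0.32). Of 3663 annotated exonic bases of Ncf1, 408 (11.1%) are also exonic in Gtf2ird2 on the opposite strand, and the strand setting of the counting is not given. Gtf2ird2 itself stood at 20.8 ± 1.49 CPM in scramble and 21.6 ± 1.82 CPM in knockdown libraries (SD, n = 5 each).

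Ncf4 encodes p40phox, which binds a phosphoinositide of phagosome membranes, and lies on chromosome 15 from 78244801 to 78262580 (plus strand, ENSMUSG00000071715). It was the least abundant member in CPM over the 10 libraries, with 9 to 54 counts a library. Its level was 0.605, 1.60, 1.52, 0.871 and 0.894 CPM in scramble libraries 1 to 5, and 1.28, 1.83, 3.39, 1.17 and 0.544 CPM in knockdown libraries 1 to 5. The groups overlapped widely, and the library labelled knockdown 5 was the lowest of all 10. The means were 1.10 ± 0.438 and 1.64 ± 1.08 CPM (SD, n = 5 each), with a log2 fold change of 0.57 (SE 0.43).

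Rac2 encodes a small GTPase of blood cells and lies on chromosome 15 from 78559167 to 78572783 (minus strand, ENSMUSG00000033220), 297 kb from the end of Ncf4. It had 2.15, 2.81, 6.10, 2.21 and 3.85 CPM in scramble libraries 1 to 5, and 3.34, 14.7, 14.6, 6.41 and 2.54 CPM in knockdown libraries 1 to 5. Only knockdown libraries 2, 3 and 4 exceeded scramble library 3. The means of 3.43 ± 1.64 and 8.31 ± 5.95 CPM (SD, n = 5 each) gave a log2 fold change of 1.28 (SE 0.55). Its paralog Rac1, which most cells express, shared no exact stretch of 50 bases with Rac2 transcripts, though 51 such stretches of Rac2 occurred in transcripts of other genes. For Cyba the number of shared stretches was 49 and for Ncf1 276, and for Cybb and Ncf4 it was 0.

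**Figure D1:**
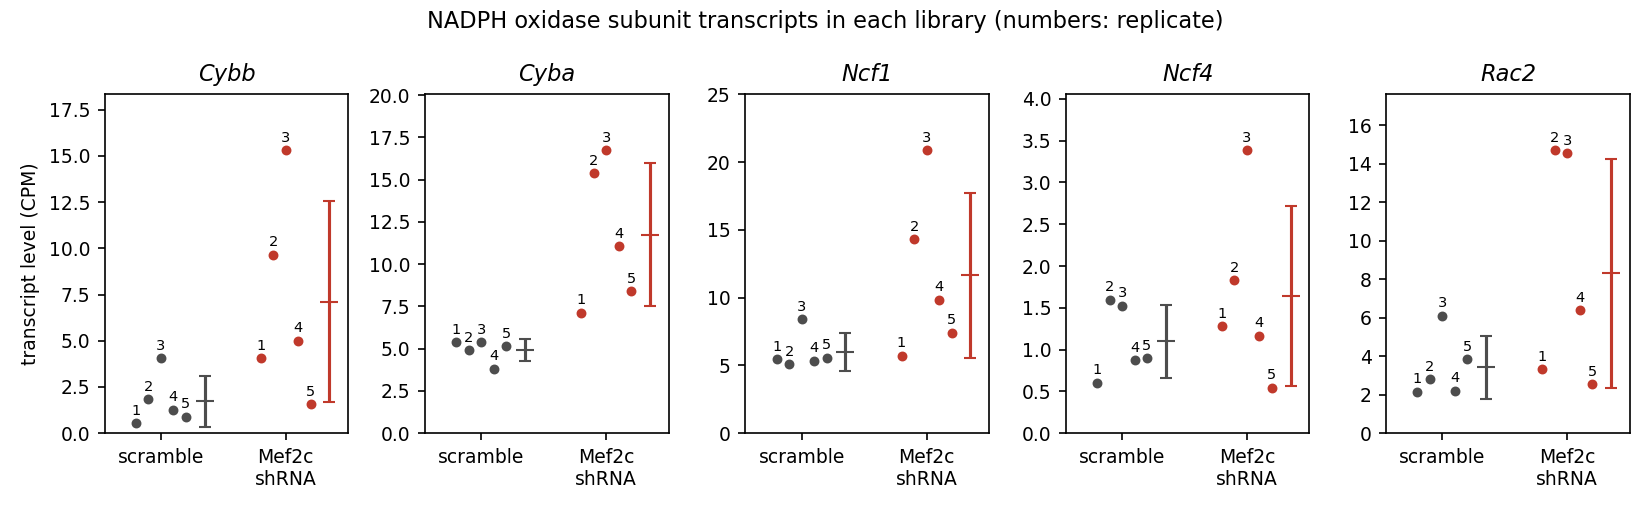
Transcript level in CPM (vertical axis, linear from 0, a separate scale for each gene) of the 5 subunits in each library, with dots numbered by replicate and bars for mean ± SD of 5 libraries. Knockdown libraries 2 and 3 are the 2 highest in every panel, and only in Cyba do all 5 knockdown dots lie above all 5 scramble dots.

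Of the 5 members, 1 (Cyba) passed an edgeR adjusted p of 0.05 upwards and 0 downwards. Of the 14393 genes tested, 4.66% passed upwards and 7.61% downwards. All 5 knockdown libraries lay above all 5 scramble libraries in 1 member, again Cyba, and in 3.30% of the genes tested. These counts describe genes picked with the comparison in view. The median log2 fold change was 1.25 over the members and 0.02 over all genes tested. By the DESeq2 Wald test the count of members was 3 (Cybb, Cyba and Ncf1), all higher, and 1163 of 18453 genes were called higher. DESeq2 gave no adjusted p for 3594 of those 18453 genes, so these could not be called.

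Compared per length of the principal transcript, Cyba was the most abundant member in scramble libraries at 6.63 ± 0.872 CPM per kb (SD, n = 5). Ncf1 followed at 2.20 ± 0.505, Rac2 at 1.13 ± 0.541, Ncf4 at 0.751 ± 0.300 and Cybb at 0.362 ± 0.292 CPM per kb. Cyba exceeded Ncf1, and Ncf1 exceeded Rac2, in all 10 libraries, while Rac2 and Ncf4 lay within their spread, with Rac2 the higher in 9 of 10. Ncf4 stood above Cybb in 5 of 5 scramble libraries but in only 2 of 5 knockdown libraries. Cyba made up 60.5% ± 6.62 of the summed CPM per kb of the 5 genes in scramble and 64.2% ± 6.41 in knockdown libraries (SD, n = 5 each). The share of Cybb, the catalytic subunit, was 3.09% ± 1.91 and 5.32% ± 2.14, a difference about as large as the spread between libraries.

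Across libraries the subunits shared an order that did not follow the groups alone. Summed over the 5 genes, scramble libraries lay between 13.5 and 25.5 CPM, with library 3 the highest, and knockdown libraries between 20.5 and 70.9 CPM. Knockdown library 1 and the library labelled knockdown 5 were the lowest of their group, at 21.5 and 20.5 CPM, below scramble library 3. Summed markers of immune cells moved largely along the same libraries. The 13 microglia markers summed to between 354 and 461 CPM in scramble and between 374 and 637 CPM in knockdown libraries, and 4 of 13 passed upwards (Tmem119, Csf1r, Aif1 and Selplg). Single microglia markers differed. Log2 fold changes were above 0 in 12 of 13, but small for Cx3cr1 (0.20, SE 0.15), P2ry12 (0.13, SE 0.10) and Sall1 (0.08, SE 0.16). Fcrls was at -0.07 (SE 0.13). The 12 interferon-stimulated genes summed to between 23.5 and 135 CPM and between 27.1 and 396 CPM, and 1 of 12 (Rtp4) passed. Among all genes tested, 4.66% passed upwards. Of 12 lymphocyte markers 4 were abundant enough to test by edgeR, and 0 passed. At an unadjusted p under 0.05, 3 of the 4 were higher, as were 2201 of the 14393 genes tested. DESeq2, run on all 12, called 3 higher, where it called 1163 of all 18453 genes higher. The lymphocyte sums lay between 2.96 and 12.1 CPM and between 4.71 and 36.0 CPM. No marker of these lists was at 0 in all 10 libraries. The part of these cells and of the interferon response in the subunit levels was not tested.

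Other phagocytes were checked as well. Of 11 neutrophil markers 10 fell below the count filter of edgeR, among them Ly6g, at most 0.121 CPM in any library. Csf3r, which microglia also express, was tested and passed. DESeq2, run without that filter, called 4 neutrophil markers higher, Csf3r, Ngp, S100a8 and S100a9, and it called 1163 of all 18453 genes higher. S100a8 and S100a9 were highest in the library labelled knockdown 5, at 3.62 and 3.14 CPM. In any other library they stood at no more than 1.19 and 1.38 CPM. With Csf3r the list summed to between 7.56 and 14.8 CPM in scramble and between 18.0 and 29.0 CPM in knockdown libraries. Without Csf3r it summed to between 0.619 and 1.88 CPM and between 1.22 and 10.6 CPM. The highest of those last sums was in the library labelled knockdown 5, and the part of neutrophils in the subunit levels was not tested. The 7 monocyte markers, with Ms4a3 not analysed here, summed to between 77.9 and 126 CPM and between 84.4 and 106 CPM, with Fn1 alone between 76.7 and 122 CPM and between 60.8 and 94.8 CPM. The 6 genes other than Fn1 summed to between 1.17 and 10.3 CPM in scramble and between 2.96 and 38.9 CPM in knockdown libraries, highest in knockdown library 2. Markers of border macrophages summed to between 8.32 and 13 CPM and between 7.27 and 14.1 CPM. Of these 6 markers 3 were tested by edgeR, and 0 of the 3 passed or reached an unadjusted p under 0.05. DESeq2, run without that filter on all 6, called 1 higher, where it called 1163 of all 18453 genes higher.

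**Figure D2:**
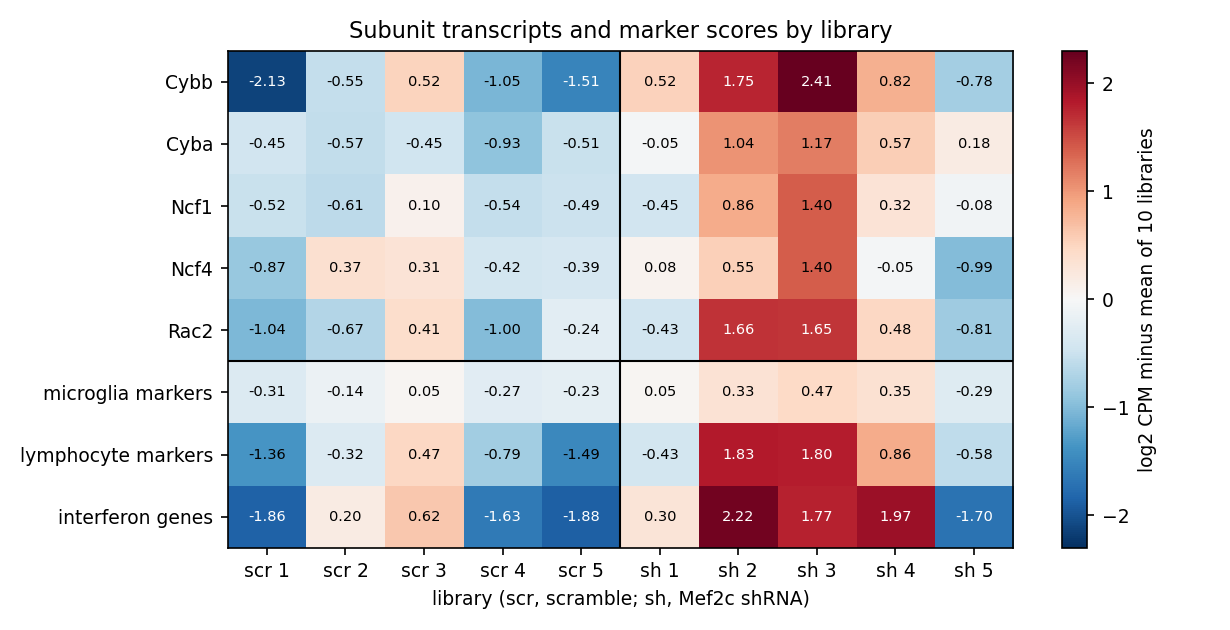
Log2 CPM minus the mean of the 10 libraries (colour scale and printed values) for the 5 subunits, above mean scores of microglia, lymphocyte and interferon genes on the same scale; columns are the scramble (scr) and Mef2c shRNA (sh) libraries. Columns sh 2 and sh 3 are high in the 5 subunits and all 3 scores, while sh 5 is below the mean in each row but that of Cyba (0.18).

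Relative to the summed microglia markers, the subunits behaved unequally. Cyba amounted to 1.27% ± 0.189 of that sum in scramble and 2.25% ± 0.504 in knockdown libraries (SD, n = 5 each), and its lowest knockdown value (1.54%) was just above its highest scramble value (1.52%). Ncf1 amounted to 1.52% ± 0.191 and 2.18% ± 0.787, with knockdown library 1 the lowest of all 10 at 1.23%. Cybb amounted to 0.417% ± 0.284 and 1.28% ± 0.796, and Rac2 to 0.855% ± 0.314 and 1.51% ± 0.925, with overlap of the groups in both. For Ncf4 the values were 0.277% ± 0.0926 and 0.300% ± 0.147, a difference smaller than the spread between libraries.

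Within groups, after each group mean was subtracted, the subunits varied together over the 10 libraries, which share depth and tissue composition. Pearson's r of log2 CPM was 0.939 for Cybb with Ncf4, 0.905 for Cyba with Ncf1, 0.903 for Ncf1 with Rac2 and 0.874 for Cyba with Rac2. Among pairs of subunits it was lowest for Cybb with Cyba, the pair that forms the membrane core, at 0.622. The shared variation was not limited to the subunits. For Rac1, which most cells express, r was 0.902 with Ncf1, 0.783 with Cyba and 0.779 with Cybb. With Rac2 and Ncf4 it was 0.749 and 0.728. The chaperone gene Cybc1 did not share it, with r from -0.32 (Ncf4) to 0.41 (Cyba). For Mef2c r lay between -0.576 (Ncf4) and -0.292 (Ncf1). Out of 12740 genes averaging 2 CPM or more, those most like Cybb were Il10ra, an interleukin receptor chain (0.993), Psd4 (0.986) and Lyz2, a lysozyme of myeloid cells (0.972). Cyba was most like Ifngr2, a chain of the interferon gamma receptor (0.950), Pabpc1, a binding protein of poly(A) tails (0.949), and Tigd2 (0.938). Ncf1 was most like Pabpc1 (0.954), the complement gene C1qa (0.953) and Nfam1 (0.944). Closest to Ncf4 were the chemokine Cxcl9 (0.953), the macrophage receptor Adgre1 (0.952) and Tnfaip3 (0.951), and closest to Rac2 were Parp3 (0.986), the Fc receptor Fcgr1 (0.973) and Cd52 (0.970). These are the top 3 of 12740 for each subunit and carry no test.

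Other genes of the oxidase family were taken by role, and their differences were tested. Cybc1, a chaperone of the membrane core, had 20.7 ± 1.43 CPM in scramble and 23.4 ± 1.77 CPM in knockdown libraries (SD, n = 5 each), with a log2 fold change of 0.18 (SE 0.08, edgeR adjusted p = 0.161). The GTPases Rac1 (254 ± 7.03 and 273 ± 13.9 CPM), Rac3 (13 ± 1.85 and 13.9 ± 1.94 CPM) and Rap1a (44.6 ± 3.65 and 46.3 ± 5.13 CPM) had log2 fold changes of 0.10, 0.10 and 0.05, those of Rac3 and Rap1a smaller than their standard errors of 0.12 and 0.09. Noxo1, an organizer of the NOX1 enzyme, stood at 1.12 ± 0.410 and 1.35 ± 0.270 CPM. In all, 0 of these 5 tested genes passed edgeR in either direction, with 1 (Cybc1) at an unadjusted p under 0.05, and DESeq2 called 0. The remaining 7 genes in the tables, Nox1, Nox3, Nox4, Noxa1, Duox1, Duox2 and Duoxa1, fell below the count filter of edgeR. Their highest level in any library was 1.26 CPM (Duox2). Without that filter edgeR called 0 of the 12 genes. At an unadjusted p under 0.05 that fit had 0 of the 12 higher and 1 lower (Duox2, 0 to 19 counts a library). Over all 18453 genes 2335 were higher and 2223 lower at that p. DESeq2 had Rac1 higher and Duox2 lower at that p, and gave no adjusted p for 7 of the 12. Duoxa2 was not analysed here.

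The wider surroundings of the oxidase were read in 111 genes over 6 lists, the family above included, of which 97 were tested. Of these, 22 rose and 1 fell (edgeR), 22.7% upwards, where 4.66% of all genes tested passed upwards. The median log2 fold change was 0.25 over the 97 genes, against 0.02 over all genes tested. The lists were drawn up with earlier results of these data known, and the number that rose moved with single libraries. Leaving out scramble library 1 or 4 gave 7, and leaving out scramble library 2 or 5 gave 5. Leaving out knockdown library 2, 3 or 4 gave 7, 9 and 10. The number was 34 when knockdown library 1 was left out and 35 when the library labelled knockdown 5 was left out. With knockdown libraries 2 to 4 removed together edgeR called 0 of 98 higher. At an unadjusted p under 0.05, 9 of the 98 were higher and 6 lower. Among all 14705 genes tested in that fit, 1095 were higher and 1495 lower at that p. An offset for GC content and transcript length left 1 (Fcgr3), and a microglia score as covariate left 2.

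The list of receptors and adaptors upstream of the oxidase, which includes cytokine receptors, held the highest share of calls among the 6 lists, 8 of 18 tested. Over all genes tested, 4.66% passed upwards. None of the 18 was lower at an unadjusted p under 0.05. DESeq2, run without the count filter of edgeR on 21 genes of this list, called 13 higher. It called 1163 of all 18453 genes higher and gave no adjusted p for 3594 of them. Fcgr3, an activating receptor for immunoglobulin G, rose from 7.97 ± 2.26 CPM to 17.7 ± 4.22 CPM (SD, n = 5 each), a log2 fold change of 1.15 (SE 0.21, edgeR adjusted p = 0.00559). Fcgr1, the high-affinity receptor of that kind, rose with a log2 fold change of 1.46 (SE 0.34), and its call was lost in 4 of the 10 fits that left out 1 library. Ifngr1, the ligand-binding chain of the interferon gamma receptor, and Csf2ra, a chain of the receptor for the growth factor GM-CSF, rose by 0.52 (SE 0.10) and 0.37 (SE 0.08) on the log2 scale, with 0.44 (SE 0.11) and 0.21 (SE 0.06), neither called, after that offset. The other calls were the signalling adaptors Fcer1g and Tyrobp, Csf2rb and the tumour necrosis factor receptor Tnfrsf1a. In Fcgr3, Ifngr1 and Csf2ra all 5 knockdown libraries lay above all 5 scramble libraries, as in 3.30% of all genes tested. Clec7a was not analysed here.

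Genes of activation and assembly were mixed, with 5 higher and 1 lower of 26 tested. Over all genes tested, 4.66% passed upwards and 7.61% downwards. Arhgdib, an inhibitor of small GTPases in blood cells that holds Rac in the cytosol, rose from a mean of 4.21 ± 0.725 CPM in scramble to 8.85 ± 3.49 CPM in knockdown libraries (SD, n = 5 each), by 1.07 on the log2 scale (SE 0.24). Its widely expressed relative Arhgdia rose from 212 ± 13.5 CPM to 252 ± 9.15 CPM, by 0.25 (SE 0.06), but by 0.06 (SE 0.04), without a call, after the offset for GC content and length, and its call was also lost without scramble library 2 or 5. All 5 knockdown libraries exceeded all 5 scramble libraries in Arhgdib and Arhgdia, as in 3.30% of all genes tested. Btk, a kinase of myeloid and B cells, rose from 0.890 ± 0.186 to 1.90 ± 0.806 CPM, a call kept in 2 of the 10 fits that left out 1 library, and Pik3r5 and Lyn rose too. Prkcb, a protein kinase C that phosphorylates p47phox in phagocytes and is abundant in neurons, fell from 499 ± 32.5 CPM to 372 ± 36.5 CPM, a log2 fold change of -0.42 (SE 0.07, edgeR adjusted p = 0.00393).

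Of the 11 transcription factors tested, 4 rose and 0 fell by edgeR, with 1 lower at an unadjusted p under 0.05 and 1 lower by DESeq2. The edgeR shares over all genes tested were 4.66% upwards and 7.61% downwards. Spi1 encodes PU.1, the factor of myeloid cells that is known to drive Cybb, and rose from 3.39 ± 1.27 CPM to 7.26 ± 2.32 CPM (SD, n = 5 each), by 1.10 on the log2 scale (SE 0.29). Its values were 3.83, 3.52, 4.97, 1.47 and 3.16 CPM in scramble libraries 1 to 5 and 4.82, 9.60, 9.41, 7.52 and 4.95 CPM in knockdown libraries 1 to 5. Knockdown library 1 and the library labelled knockdown 5 lay just below scramble library 3, and the call held in 4 of the 10 fits that left out 1 library. Runx1 rose by 1.10 (SE 0.31), Cebpb by 0.56 (SE 0.15) and Rela, a subunit of NF-kappaB, by 0.29 (SE 0.09) on the log2 scale. Their calls held in 2, 4 and 3 of those 10 fits. After the offset for GC content and length Cebpb was at 0.27 (SE 0.15) and Rela at 0.14 (SE 0.09).

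Enzymes that remove superoxide and peroxide included 3 that rose of 22 tested, and 0 fell by edgeR, DESeq2 or an unadjusted p under 0.05. By edgeR, 4.66% of all genes tested rose, the share to set beside this list and the next. Gpx1, a glutathione peroxidase, rose from 31.9 ± 1.68 CPM to 43.8 ± 6.35 CPM (SD, n = 5 each), by 0.46 on the log2 scale (SE 0.09, edgeR adjusted p = 0.00967). All 5 knockdown libraries lay above all 5 scramble libraries in Gpx1, 1 of the 22 genes, and in 3.30% of all genes tested. The log2 fold change of Gpx1 after the offset for GC content and length was 0.20 (SE 0.07), without a call. Prdx6, a peroxiredoxin, and Txn2, the mitochondrial thioredoxin, rose by 0.42 (SE 0.11) and 0.32 (SE 0.08), calls that held in 3 and 4 of the 10 fits that left out 1 library. With that offset the value of Txn2 was 0.16 (SE 0.06). Prdx1 had a log2 fold change of 0.26 (SE 0.08) and did not pass (edgeR adjusted p = 0.0597). Of the 15 genes of the NRF2 response and of NADPH supply 2 rose and 0 fell by edgeR, with 1 lower at an unadjusted p under 0.05 and 0 lower by DESeq2. Hmox1, heme oxygenase, rose from 3.62 ± 0.759 CPM to 6.06 ± 1.34 CPM (SD, n = 5 each), by 0.74 (SE 0.19), and Taldo1, of the pentose phosphate pathway, rose by 0.26 (SE 0.08), calls that held in 4 and 3 of those fits. Taldo1 was at 0.06 (SE 0.06) with the offset. Nfe2l2, which encodes NRF2, and Pgd, which makes NADPH, had log2 fold changes of 0.40 (SE 0.13) and 0.20 (SE 0.07) and did not pass (edgeR adjusted p = 0.0662 and 0.0837).

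**Figure D3:**
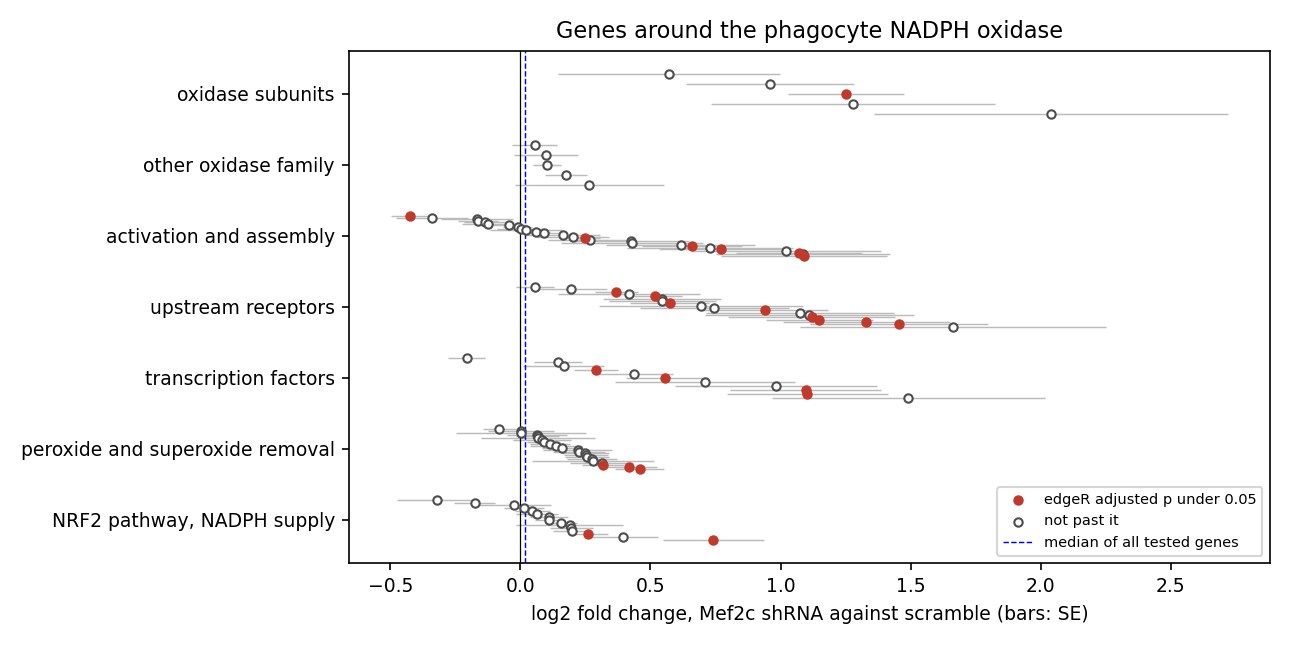
Log2 fold change of Mef2c shRNA against scramble (horizontal axis, bars are standard errors) for each tested gene of 7 groups, with filled dots for an edgeR adjusted p under 0.05 and a dashed line at the median of all genes tested. The receptor row holds 8 filled dots, all above 0, and the row of other oxidase family genes holds none.

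The subunit differences depended on the setting. With knockdown libraries 2 to 4 removed, the log2 fold changes were 0.69 (SE 0.66) for Cybb, 0.65 (SE 0.19) for Cyba, 0.13 (SE 0.23) for Ncf1, -0.28 (SE 0.50) for Ncf4 and -0.23 (SE 0.40) for Rac2. With the microglia score as a covariate they were 0.26 (SE 0.35), 0.76 (SE 0.22), 0.21 (SE 0.26), -0.66 (SE 0.41) and -0.22 (SE 0.34) in the same order. After the offset for GC content and length they were 2.12 (SE 0.68), 0.94 (SE 0.22), 0.86 (SE 0.32), 0.37 (SE 0.44) and 1.19 (SE 0.54). Cybb, Cyba and Ncf1 kept their direction in each of these 3 fits, and Cyba has the shortest principal transcript of the 5, at 0.744 kb. In the same 3 fits edgeR placed 0 members past the threshold, with 1, 1 and 3 of 5 at an unadjusted p under 0.05. Over all genes tested in these fits, 2590 of 14705, 3814 of 14393 and 2522 of 14381 reached that unadjusted p. Leaving out 1 library at a time gave log2 fold changes of 1.55 to 2.63 for Cybb, 1.09 to 1.39 for Cyba, 0.64 to 1.13 for Ncf1, 0.13 to 0.80 for Ncf4 and 0.97 to 1.60 for Rac2. The lowest of these for Cybb, Cyba, Ncf1 and Ncf4 came without knockdown library 3, and for Rac2 without knockdown library 2. The members past the threshold were Cybb with Cyba without scramble library 3 or the library labelled knockdown 5, Cyba with Ncf1 without knockdown library 1, and Cyba alone without each of the other 7 libraries.

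**Figure D4:**
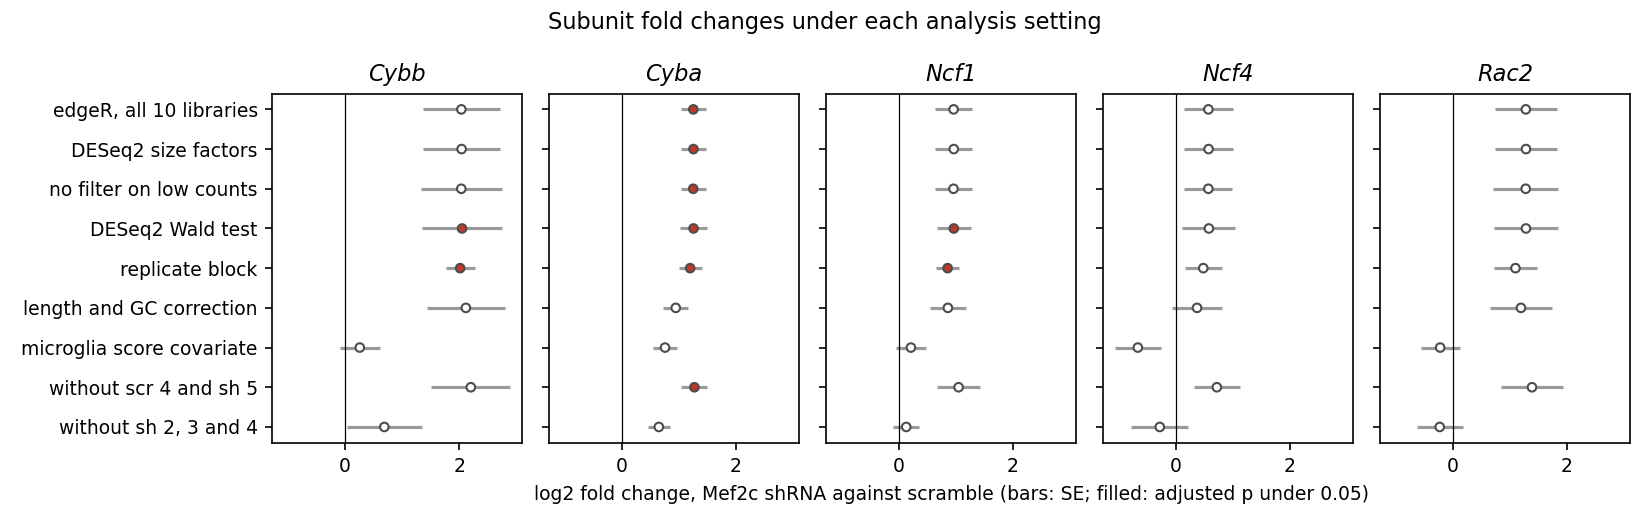
Log2 fold change of each subunit (horizontal axis, bars are standard errors, shared scale) under 9 analysis settings, filled where the adjusted p was under 0.05. Cyba stays above 0 in every setting drawn, while Ncf4 and Rac2 lie below 0 with the microglia score as a covariate and without knockdown libraries 2, 3 and 4.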

How the data were processed

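The authors deposited 10 tables of unnormalized gene counts, 1 a library, which hold whole numbers. Per the submitters' processing notes, HISAT2 and featureCounts were used with build mm10. No source used here states tool versions, strand setting or annotation. Per the labels' protocols, libraries were made from polyadenylated RNA. Sample titles gave each library's group and number. Of 18453 identifiers, 18421 matched GENCODE M21 (GRCm38), the source of symbols, positions and lengths. Promoter sequences are from RefSeq. The test was that of edgeR 4.0.16 under R 4.3.3 (filterByExpr, TMM, robust quasi-likelihood test, Benjamini-Hochberg adjustment over 14393 genes, threshold 0.05), and the SE is the log2 fold change divided by the square root of F. CPM uses TMM-scaled totals, and log2 CPM a prior count of 2. The members and lists were chosen with earlier results of these data known. Named genes are the members, the tested oxidase family, in every other list the 4 tested genes of lowest p, and for each member the 3 genes with the highest r. Some called genes and markers outside that rule were named after their values were seen, as was Gtf2ird2 for its overlap. A gene of the oxidase family list is not reported here.

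Alternatives were DESeq2 1.42.0 size factors, its Wald test, no filter on low counts, a replicate block, a microglia score (mean centred log2 CPM of 13 markers) as covariate, an offset from natural splines (5 degrees of freedom each) of log2 transcript length and GC content, and the removal of libraries. Removal of scramble library 4 with the library labelled knockdown 5 was chosen after seeing the data. The pipeline was tested on simulated data. No library duplicated another within its group (chi-square per degree of freedom of 3.74 to 37.4).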

Additional observations from a re-analysis of the deposited data

Results flagged for a closer look

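Within each group of 5 libraries, the highest and lowest values were checked for a gap to the rest above 0.71 of the range. Of 90 groups checked 7 passed, and chance passes about 1 in 20. Ncf1 in scramble library 3 stood at 8.42 CPM, with the other scramble libraries between 5.12 and 5.57 CPM. The 5 subunits together summed to 25.5 CPM in that library, where the others lay between 13.5 and 16.4 CPM, and the lymphocyte markers to 12.1 CPM, where the others lay between 2.96 and 5.56 CPM. Mef2c stood at 312 CPM in scramble library 4 (166 to 198 CPM in the others), and the cortical markers summed to 315 CPM there (204 to 226 CPM in the others). Runx1 was low in scramble library 5, at 0.962 CPM against 1.19 to 1.28 CPM, and Rela was high in knockdown library 4, at 36.9 CPM against 27.3 to 30.1 CPM.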

How the results depend on the processing

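The number of genes called was 1766, and it was 681 with the microglia score as covariate, 237 with the length and GC correction, 1029 without scramble library 4 and the library labelled knockdown 5, and 0 without knockdown libraries 2, 3 and 4 (edgeR, with 2590 genes at an unadjusted p under 0.05). Leaving out single libraries gave 631 to 3305 genes. The 22 higher genes around the oxidase became 2, 1 and 0 with the covariate, the correction and without knockdown libraries 2, 3 and 4, and 5 to 35 without single libraries. The 1 lower gene became 2 with DESeq2 and 0 without knockdown libraries 2, 3 and 4, and 1 to 2 without single libraries. The causes were not tested. Signs reversed, without passing, for Ncf4 (-0.66 and -0.28), Rac2 (-0.22 and -0.23) and Rap1a (-0.0449 and -0.109) with the covariate and without those 3 libraries, for Mef2c with the covariate (0.0711), for Rac3 (-0.18) and Gtf2ird2 (-0.0273) with the correction, and for Rac3 (-0.0026) without scramble library 4 and the library labelled knockdown 5. With a replicate block 1313 genes were called, among them 26 higher genes around the oxidase and 3 members (Cybb, Cyba and Ncf1). Libraries with the same number were not shown to be pairs, since their deviations correlated between -0.114 and 0.403 and above 0.1 in only 3 of 5. Of the single genes named with a fold change, 126 values under alternatives lost the call, 17 gained it, 10 reversed and 423 did none of these. Low counts limit Cybb and Ncf4 most, with as few as 8 and 9 counts in a library.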
